A study of Mus musculus with 5 samples.

Results

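Solute carriers are membrane proteins that move ions, sugars, amino acids, metals, nucleotides and vitamins across the plasma membrane and the membranes of vesicles and mitochondria. They are numbered by family, and the members of a family usually share a class of substrate. In the retina they clear glutamate and glycine from synapses, supply photoreceptors with glucose, lactate and taurine, and set the chloride, calcium and proton levels on which light responses depend. Their ratios between Rb-mutant and wild-type retina are described here. Members were all spots whose single annotated gene symbol starts with Slc and a number or with Slco, apart from spots for Slc25a4, Slc25a5 and Slc17a6 to Slc17a8. This gave 129 spots for 97 genes, out of 17328 spots, of which 7722 carry a single symbol, for 5708 genes. The rule uses no measured value, but it was set with earlier results of these data known. Symbols for 92 of the genes name transporters, from 33 substrate families. The other 5, Slc9a3r1, Slc9a3r2, Slc4a1ap, Slc7a6os and Slc2a4rg-ps, carry a transporter's name but encode adaptors, a neighbouring gene or a pseudogene. They stayed in all counts of members, where 3 of their spots, for 2 genes, were tested. Only the substrate classes and families leave them out.

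The series holds 5 dual-colour spotted arrays that form 1 group, numbered 1 to 5 in accession order. On each, total RNA of mice labelled as mutant (Rb-) shared the array with total RNA of wild-type mice, and the series title names retinal explants, which are retinas kept in culture. The sources used here do not give age, strain, allele, time in culture or pooling, so what limits the mutant as a model cannot be stated, nor whether the arrays came from separate animals. All p-values therefore measure the spread between arrays, which may be technical. Nor do they give the dye of each RNA or the order of the deposited ratio. A positive or negative log2 ratio is therefore quoted as deposited and is assigned to neither genotype.

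Of the 129 solute carrier spots, 66 (51.2%) gave a ratio on all 5 arrays and 23 on 4, against 57.2% of all single-symbol spots on all 5. These 89 spots, for 74 genes, were tested. The remaining 40 spots, among them every spot of 23 genes, had 3 ratios or fewer and are given only as values. Each array was centred on the median of its spots. After this the 4625 tested genes still had medians of -0.35, -0.01, -0.35, 0.08 and -0.22 log2 in array order, averaging -0.17, and group values are given as an offset, the median of the group on an array less the median of every tested gene there. The number of arrays limits the precision. The arrays could not be checked for the tissue's markers by level, because a ratio gives no level. As ratios, 15 photoreceptor markers of the 21 listed were tested, and their offset was -3.10, -0.02, -3.19, -0.35 and -0.21 over arrays 1 to 5. Lists for microglia and blood (0 genes tested), lens (1) and pigment epithelium (2) were too thinly measured to describe.

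As a group the solute carriers lay close to the median of all genes. The offset of the 74 genes stood at -0.05, -0.04, -0.04, -0.16 and 0.11 in array order, averaging -0.03 ± 0.09 (SD, n = 5). It therefore stayed within 0.16 of all genes on every array, including arrays 1 and 3 on which the photoreceptor markers stood apart. Over the 3 arrays scanned at focus position 10, with 112 member spots on at least 2 of them, the value was 0.00. Over the 2 scanned at focus position 0, with 94 member spots on both, it was -0.02. These sets of spots differ from the 89 of the main fit. Solute carrier genes with a negative ratio made up 67.6%, 55.1%, 66.2%, 52.7% and 54.9% over arrays 1 to 5, against 65%, 50.4%, 64.5%, 44.6% and 63.2% of all genes. The members' share thus lay above that of all genes on arrays 1 to 4 and below it on array 5.

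**Figure D1:**
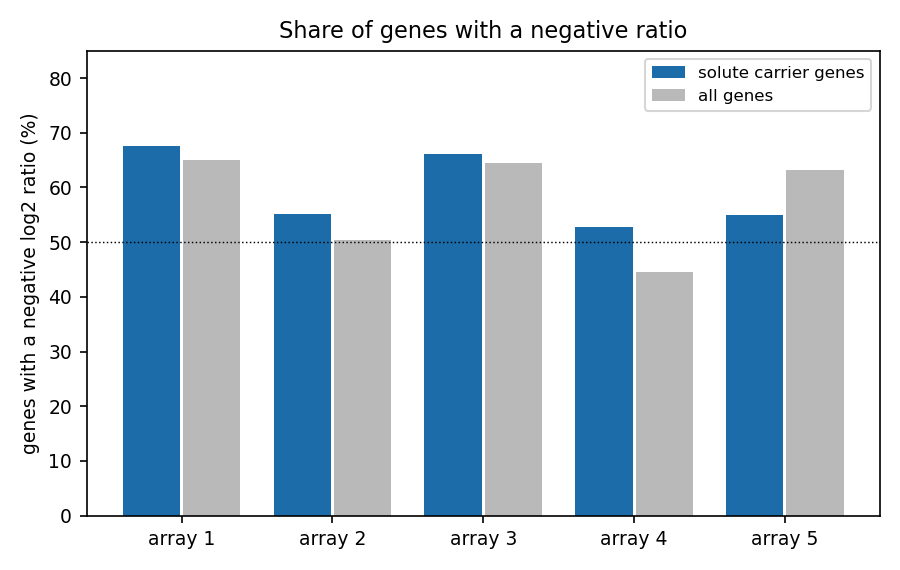
Bars give the percentage of tested genes with a negative centred log2 ratio on each array, solute carriers in blue and all genes in grey, with a dotted line at 50%. Both shares are highest on arrays 1 and 3, at 67.6% and 66.2% for the solute carriers.

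Not one solute carrier spot passed the test. Among the 89 spots, limma's moderated test against a ratio of 0, with Benjamini-Hochberg adjustment over all probes, called 0 at an adjusted p of 0.05, and the smallest adjusted p of a member was 0.409. Over all 10036 probes the same rule called 0%, with a smallest adjusted p of 0.26. At an unadjusted p under 0.05 there were 14 member spots, 15.7%, against a background of 11.4% of all probes. Of these, 11 were negative and 3 positive. These were 12.4% and 3.37% of the member spots, against 5.9% and 5.52% of all probes and 6.18% and 3.35% of single-symbol probes. The count and its split rested on the processing. With arrays centred on the probes measured on all 5, it was 6 negative and 6 positive, and with no centring 21 and 1. Over all 10036 probes these settings gave 1138 and 2107 probes in either direction, beside 1146 as reported. Leaving out arrays 1, 2, 3, 4 and 5 in turn left 8, 7, 6, 8 and 9 spots. Probes then needed 3 of the other arrays, so 105, 99, 100, 103 and 94 member spots were tested. Among all probes the counts were 1007 of 11529, 1316 of 11561, 972 of 11252, 1129 of 11493 and 1056 of 11327.

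Of the 66 member spots measured on all 5 arrays, 13 (19.7%) were negative on every array and 2 (3.03%) positive on every array. Among single-symbol probes measured on all 5 arrays, 12.8% were negative and 3.39% positive throughout, and among all such probes 11.2% and 4.01%. Set against the median of all genes on each array rather than against 0, 8 of the 66 lay below it on all 5 arrays and 5 above it, where 9.8% and 7.85% of the single-symbol probes did. The array with a member's lowest ratio was array 3 for 24 of the 66 spots, array 1 for 19, array 5 for 10, array 2 for 8 and array 4 for 5. All single-symbol probes had the same order in this, with 33.2%, 30%, 19.7%, 11.1% and 5.97% of lowest ratios on these arrays. Arrays 1 and 3 also had the widest spread. The median absolute deviation over probes measured on all 5 arrays was 0.965 on array 1 and 0.973 on array 3. On arrays 2, 4 and 5 it was 0.476, 0.58 and 0.632.

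**Figure D2:**
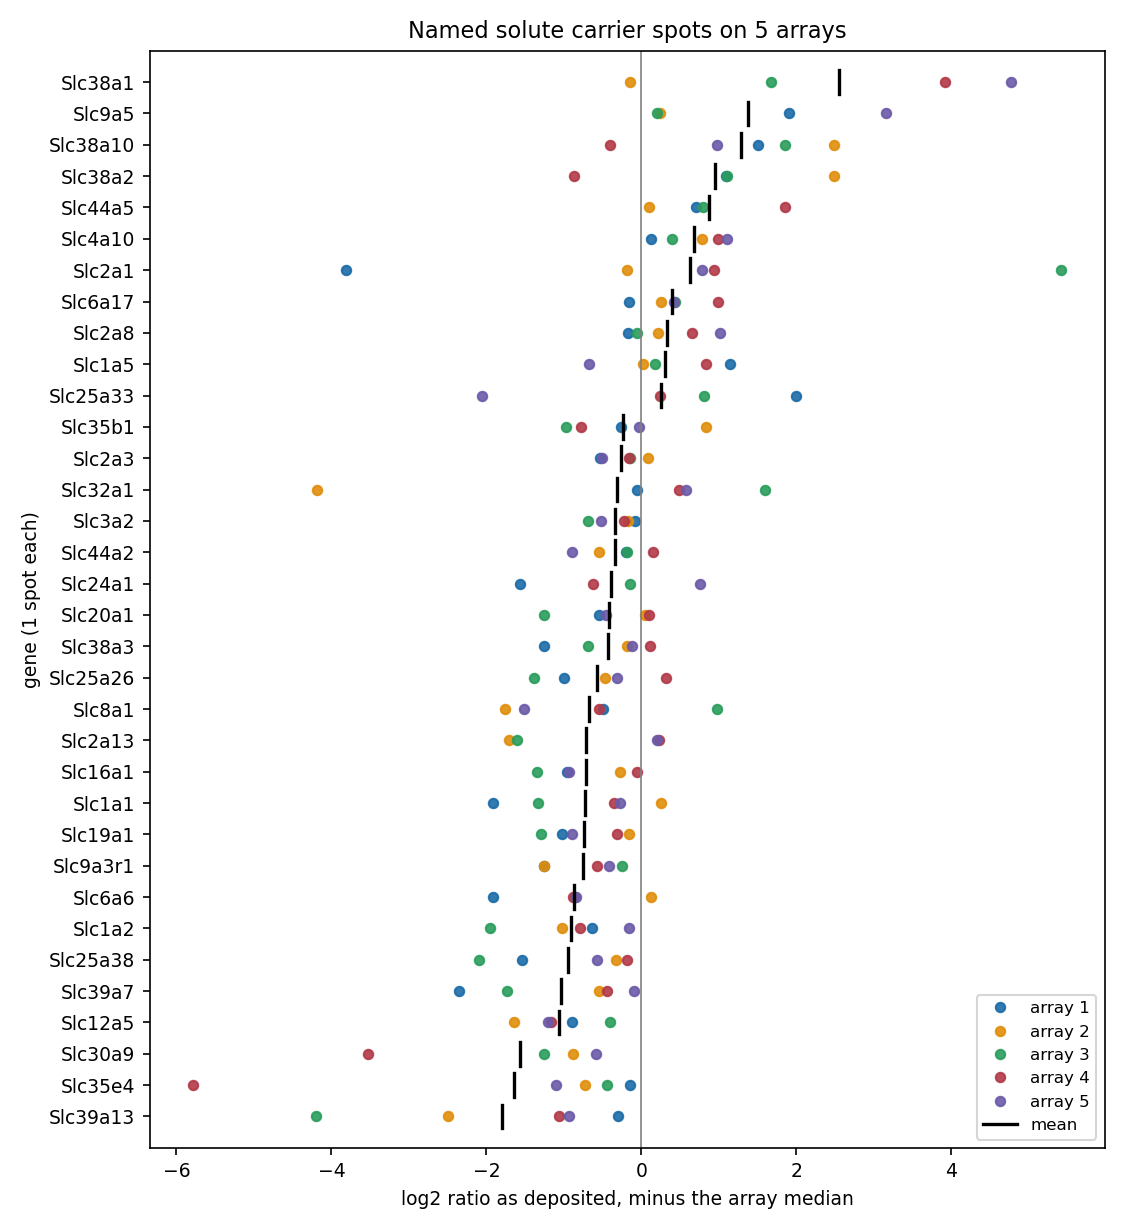
Each row is 1 spot of a named gene, coloured points are its centred log2 ratios over arrays 1 to 5, and the black bar is their mean. Slc12a5, with ratios between -1.64 and -0.41, keeps to one side of 0, whereas Slc2a1 runs from -3.81 to 5.42.

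Amino acid and neurotransmitter transporters made up the largest class tested, with 14 genes and 20 spots, and their spots had a negative mean as often as a positive one (10 each). The offset of the class was 0.31, -0.01, 0.47, 0.00 and 0.08 over arrays 1 to 5, averaging 0.17 ± 0.21 (SD, n = 5). At an unadjusted p under 0.05 the class held 3 negative and 2 positive spots of its 20, where 5.9% of all probes were negative and 5.52% positive.

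Slc6a6, which imports taurine and whose loss in mice leads to photoreceptor degeneration, had 2 tested spots that behaved alike. One spot gave centred log2 ratios of -1.92, 0.13, -0.86, -0.88 and -0.84 over arrays 1 to 5. The other had -0.39, -0.32, -1.58, -0.73 and -0.63. The means were -0.87 ± 0.72 and -0.73 ± 0.51 (SD, n = 5 each), with a limma adjusted p of 0.432 for each. Only array 2 of the first spot lay above 0. Of 13 solute carrier genes with more than 1 tested spot, Slc6a6 was the single one whose spots all had an unadjusted p under 0.05 and the same sign, while 9 of 989 genes (0.91%) did so over the whole series.

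Glutamate uptake was represented by Slc1a2, the main glial transporter of the brain, which the retina carries in cones and bipolar cells, and by the neuronal transporter Slc1a1. Slc1a2 gave centred log2 ratios of -0.64, -1.02, -1.95, -0.79 and -0.16 over arrays 1 to 5, all below 0, with a mean of -0.91 ± 0.66 (SD, n = 5) and a limma adjusted p of 0.432. A second Slc1a2 spot went the other way on the arrays that measured it, at 0.85, 0.30 and 0.66 on arrays 1, 2 and 5, and one more gave 0.04 on array 1 alone. Slc1a1 had -1.92, 0.25, -1.34, -0.35 and -0.28. The relative Slc1a5, which carries glutamine and other neutral amino acids, had 1.15, 0.02, 0.17, 0.84 and -0.67, so it did not share the negative side. With no centring its mean of 0.30 turned to -0.16.

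Family 38 carries glutamine and other neutral amino acids coupled to sodium, and 5 of its genes were tested. Their offset was 0.51, -0.01, 0.75, -0.04 and 0.24 over arrays 1 to 5, averaging 0.29 ± 0.34 (SD, n = 5). Slc38a1, which loads neurons with glutamine, had one spot at -0.15, 1.67, 3.92 and 4.77 on arrays 2 to 5 and another at 0.16, 0.03, 0.41, 0.98 and 0.41 over arrays 1 to 5. The first had a mean of 2.55 ± 2.23 (SD, n = 4) and the second 0.40 ± 0.36 (SD, n = 5). Both means were positive but their sizes were far apart, and the adjusted p was 0.432 for the first and 0.51 for the second (limma).

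Slc38a10 had spots on opposite sides of 0. One spot gave centred log2 ratios of 1.51, 2.48, 1.86, -0.40 and 0.98 over arrays 1 to 5, and the other -0.68, -0.32, -1.06, 0.02 and -0.94. The signs were opposite on every array, and no direction can be given for the gene. Slc38a2, which amino acid shortage is known to induce, had 1.09, 2.48, 1.10 and -0.87 on arrays 1 to 4 on one spot and -0.68, 0.50, 1.14, 0.10 and 0.68 on the other. Slc38a3, which glia use to release glutamine, had -1.25, -0.19, -0.69, 0.11 and -0.12. It was thus low on array 1 and near 0 on arrays 2, 4 and 5.

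Among neurotransmitter transporters of family 6, Slc6a17, a vesicular carrier of neutral amino acids, gave centred log2 ratios of -0.16, 0.26, 0.43, 0.99 and 0.42 over arrays 1 to 5. Its other spot swung between 4.86 on array 3 and -4.30 on array 5, so this gene had no stable value. Slc6a5, the neuronal glycine transporter, had 1.28, 0.12, -2.51 and 1.33 on arrays 1, 3, 4 and 5. Slc32a1 loads GABA and glycine into synaptic vesicles of amacrine and horizontal cells. It had -0.06, -4.18, 1.59, 0.48 and 0.58, and without array 2 its mean of -0.32 turned to 0.65. A second Slc32a1 spot, at 2.48, 1.09 and -0.05 on arrays 2, 3 and 5, was opposite in sign on arrays 2 and 5. Slc3a2, the heavy chain that carries several amino acid exchangers to the cell surface, had -0.08, -0.17, -0.69, -0.22 and -0.52, negative on every array but small, with a mean of -0.34 ± 0.26 (SD, n = 5). Its other spot, on arrays 1 to 4, had 0.02, 1.31, -4.33 and 2.20.

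**Figure D3:**
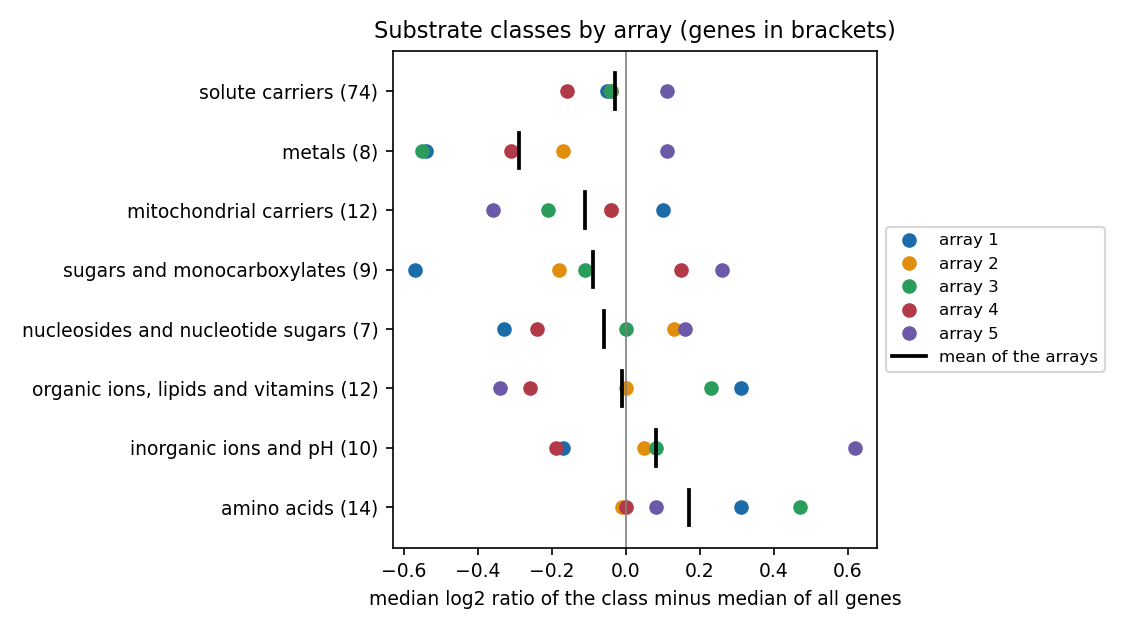
Points give, for each substrate class and array, the median centred log2 ratio of its genes minus the median of all genes, and the black bar is the mean of the 5 arrays. The solute carriers together lie near 0 on every array, and the metal transporters run from -0.55 on array 3 to 0.11 on array 5.

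Transporters of inorganic ions and of acid or base gave 10 tested genes and an offset of -0.17, 0.05, 0.08, -0.19 and 0.62 over arrays 1 to 5, averaging 0.08 ± 0.33 (SD, n = 5). The class held the solute carrier with the smallest p and one of the few positive ones, both known from neurons. Slc12a5, the potassium-chloride cotransporter that keeps chloride low in neurons so that GABA inhibits, gave centred log2 ratios of -0.89, -1.64, -0.41, -1.17 and -1.21 over arrays 1 to 5. Every array was negative, and the mean was -1.06 ± 0.46 (SD, n = 5) with a limma adjusted p of 0.409. Its mean was -0.98 over the arrays at focus position 10 and -1.19 over those at focus position 0. A second Slc12a5 spot gave 1.17, -0.76 and -3.48 on arrays 1, 2 and 5 and did not settle the direction.

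Slc4a10, a sodium-coupled bicarbonate transporter of neurons, gave centred log2 ratios of 0.13, 0.78, 0.40, 0.99 and 1.11 over arrays 1 to 5. All were positive, with a mean of 0.68 ± 0.41 (SD, n = 5) and a limma adjusted p of 0.432. Its other tested spots had means of 0.22 and -0.27, with ratios on both sides of 0. The promoters of these 2 genes are shown because one spot of each kept its sign on all 5 arrays, on opposite sides of 0. Each runs from 250 bases before to 50 after a RefSeq gene start and is given 5′ to 3′, with capitals for a match to the E2F core TTGGCGC in Slc12a5 and to the NRL core TGCTGAC, read on the other strand, in Slc4a10.
Slc12a5, GRCm38.p6 chr2:164960596-164960895, plus strand: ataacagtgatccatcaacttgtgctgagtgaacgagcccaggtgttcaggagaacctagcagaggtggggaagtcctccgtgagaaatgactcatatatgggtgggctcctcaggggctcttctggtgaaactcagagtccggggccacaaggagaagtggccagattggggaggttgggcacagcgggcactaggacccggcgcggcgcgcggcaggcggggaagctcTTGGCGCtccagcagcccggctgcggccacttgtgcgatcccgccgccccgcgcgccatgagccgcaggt
Slc4a10, GRCm38.p6 chr2:62147628-62147927, plus strand: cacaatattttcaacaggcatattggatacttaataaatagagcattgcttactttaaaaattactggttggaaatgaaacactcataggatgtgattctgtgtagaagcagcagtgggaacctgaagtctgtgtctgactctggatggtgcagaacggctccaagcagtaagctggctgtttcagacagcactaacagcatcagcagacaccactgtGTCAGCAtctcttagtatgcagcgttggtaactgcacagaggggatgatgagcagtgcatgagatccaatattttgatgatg
The match starts at position -20 relative to the gene start in Slc12a5 and at -32 in Slc4a10. Both genes have a further RefSeq start, whose windows are not shown. For each gene the printed window was chosen because it holds the marked match, which the other window lacks.

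RefSeq promoters were matched for 59 of the 74 tested genes. On either strand, TTGGCGC was found in 3 of them (5.08%) against 2.85% of all 27025 genes with a promoter, and TGCTGAC in 4 (6.78%) against 5.28%. The CRX core TAATCC was found in 4 (6.78%) against 8.14%, and the E-box CACGTG in 7 (11.9%) against 8.09%. A gene with several windows was counted once if any of them held the motif. Such matches describe the letters and do not show binding.

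The photoreceptor's own calcium exchanger, Slc24a1, which extrudes calcium from the rod outer segment, was poorly measured. Its tested spot gave centred log2 ratios of -1.57, -0.14, -0.63 and 0.76 on arrays 1, 3, 4 and 5. Another Slc24a1 spot had 4.80 and 0.95 on arrays 1 and 3, and one more had 1.34 and 0.97 on arrays 2 and 5. The spots thus had opposite signs on arrays 1 and 3, where the photoreceptor markers were far below all genes, and no direction could be given. Slc8a1, a sodium-calcium exchanger of the plasma membrane, had -0.49, -1.76, 0.97, -0.55 and -1.51 over arrays 1 to 5.

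Proton exchange was covered by Slc9a5, a sodium-proton exchanger of neurons, with 3 tested spots. One was positive wherever measured, at 1.91, 0.24, 0.20 and 3.16 on arrays 1, 2, 3 and 5, averaging 1.38 ± 1.43 (SD, n = 4). The others had means of -0.20 and -0.11. Slc20a1, a phosphate importer, had -0.55, 0.05, -1.26, 0.10 and -0.46 over arrays 1 to 5. Slc9a3r1, a scaffold that tethers transporters and receptors at the membrane and not a carrier itself, had -1.25, -1.26, -0.25, -0.57 and -0.42, averaging -0.75 ± 0.47 (SD, n = 5). Its second spot was positive on the arrays that measured it, at 1.44, 0.44 and 0.92 on arrays 1, 2 and 5.

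Some sugar and monocarboxylate carriers feed the high glycolytic rate of photoreceptors. The class was grouped by family number, and 9 of its genes were tested. Their offset was -0.57, -0.18, -0.11, 0.15 and 0.26 over arrays 1 to 5, averaging -0.09 ± 0.32 (SD, n = 5). Slc16a1, which carries lactate and pyruvate, gave centred log2 ratios of -0.96, -0.28, -1.35, -0.05 and -0.94 over arrays 1 to 5, averaging -0.72 ± 0.53 (SD, n = 5) and a limma adjusted p of 0.435. All 5 were negative, although array 4 was close to 0. A second Slc16a1 spot had -0.19, 2.06 and 1.88 on arrays 2, 3 and 5, opposite in sign on arrays 3 and 5. The Slc16a1 promoter is shown as one of the 7 that hold an E-box, in capitals, at position -200 relative to the gene start.
Slc16a1, GRCm38.p6 chr3:104638414-104638713, plus strand: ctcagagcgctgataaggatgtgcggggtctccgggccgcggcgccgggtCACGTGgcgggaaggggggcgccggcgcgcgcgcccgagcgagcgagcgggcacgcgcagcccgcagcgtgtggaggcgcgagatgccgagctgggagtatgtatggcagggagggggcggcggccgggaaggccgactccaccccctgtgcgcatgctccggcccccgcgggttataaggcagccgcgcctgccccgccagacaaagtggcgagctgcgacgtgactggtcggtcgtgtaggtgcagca

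Slc2a1, the glucose transporter of photoreceptors, glia and the blood-retina barrier, gave centred log2 ratios of -3.81, -0.19, 5.42, 0.94 and 0.78 over arrays 1 to 5, the widest range of any named spot. Its mean of 0.63 turned to -0.57 without array 3. Slc2a3, the neuronal glucose transporter, was in contrast tightly measured at -0.53, 0.08, -0.15, -0.16 and -0.51, averaging -0.26 ± 0.26 (SD, n = 5) and within 0.10 of the mean shift of all genes (-0.17). Slc2a8, an intracellular hexose transporter, had -0.17, 0.22, -0.06, 0.66 and 1.01 on one spot and 0.81, -0.25, 0.48, 0.19 and -0.92 on the other, with opposite signs on 4 of the 5 arrays. Slc2a13, which carries myo-inositol with protons, had -1.71, -1.60, 0.23 and 0.20 on arrays 2 to 5.

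Metal transporters were the substrate class furthest below all genes, with 8 genes tested. Their offset was -0.54, -0.17, -0.55, -0.31 and 0.11 over arrays 1 to 5, averaging -0.29 ± 0.27 (SD, n = 5). Of the 9 spots, 8 had a negative mean, against 65.8% of single-symbol probes, and 3 had an unadjusted p under 0.05, all negative, against 5.9% of all probes and 6.18% of single-symbol probes. Over the alternatives tried, the class stayed between -0.45 and -0.09. No single spot passed after adjustment.

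Within the class, the ZIP family brings zinc and other metals into the cytosol. Slc39a13 gave centred log2 ratios of -0.30, -2.50, -4.20, -1.06 and -0.94 over arrays 1 to 5, averaging -1.80 ± 1.57 (SD, n = 5), which was the lowest mean of any tested member. Slc39a7, which releases zinc from the endoplasmic reticulum, had -2.35, -0.55, -1.74, -0.44 and -0.10, averaging -1.04 ± 0.96 (SD, n = 5). Both were negative on every array with an adjusted p of 0.432 each (limma). Slc39a6 stayed close to 0, between -0.33 and 0.30.

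Other metals gave mixed pictures. Slc30a9, from the zinc efflux family, had -0.88, -1.26, -3.53 and -0.58 on arrays 2 to 5 on one spot, but 0.36, 0.49, 1.07 and 0.33 on the same arrays on the other. The 2 spots were opposite in sign on each of these arrays. Slc31a1, the copper importer, had -1.28, -0.01, -1.66, 0.20 and -1.12 over arrays 1 to 5. Slc11a2, which carries iron with protons, had -0.04, -0.14, -1.40, 0.29 and -0.03, so that only array 3 was far from 0.

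Mitochondrial carriers of family 25 mostly exchange metabolites between the matrix and the cytosol. They formed the largest family, with 12 genes and 13 spots tested. Their offset was 0.10, -0.04, -0.21, -0.04 and -0.36 over arrays 1 to 5, averaging -0.11 ± 0.18 (SD, n = 5). A negative mean was found for 10 of the 13 spots, where 65.8% of single-symbol probes had one, and 1 spot had an unadjusted p under 0.05, where 11.4% of all probes did. This was Slc25a38, which imports glycine for haem synthesis, with log2 ratios of -1.54, -0.33, -2.10, -0.19 and -0.57, averaging -0.95 ± 0.83 (SD, n = 5) and a limma adjusted p of 0.432. Slc25a26, the carrier of S-adenosylmethionine, had -1.0, -0.47, -1.38, 0.32 and -0.31. Slc25a33, which carries pyrimidine nucleotides, had 2.0, 0.81, 0.24 and -2.05 on arrays 1, 3, 4 and 5, and without array 1 its mean of 0.25 turned to -0.33. Slc25a37, the iron importer mitoferrin, had spots with means of 0.25 and -0.73.

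Nucleoside and nucleotide-sugar transporters, with 7 genes tested, had an offset of -0.33, 0.13, 0.00, -0.24 and 0.16 over arrays 1 to 5, averaging -0.06 ± 0.22 (SD, n = 5). None of their 8 spots had an unadjusted p under 0.05 by limma, where 11.4% of all probes did. Slc29a2, an equilibrative nucleoside transporter chosen after its values were seen, was negative on all 5 arrays at -1.01, -0.08, -2.41, -0.21 and -0.51. Slc35e4 was also negative on all of them, but its mean of -1.64 ± 2.34 (SD, n = 5) rested on array 4, with -0.15, -0.73, -0.44, -5.78 and -1.10 over arrays 1 to 5. A second Slc35e4 spot had 1.92, -2.11 and 1.62 on arrays 3, 4 and 5, also lowest on array 4. Slc35b1, a transporter of the endoplasmic reticulum, had -0.26, 0.83, -0.97, -0.78 and -0.03 on one spot and -0.82, -0.16, 0.29, 0.45 and -0.09 on the other.

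Carriers of organic ions, lipids and vitamins gave 12 tested genes with an offset of 0.31, 0.00, 0.23, -0.26 and -0.34 over arrays 1 to 5, averaging -0.01 ± 0.29 (SD, n = 5). Slc19a1, the reduced folate carrier that supplies one-carbon units for nucleotide synthesis, gave centred log2 ratios of -1.03, -0.16, -1.30, -0.31 and -0.89, averaging -0.74 ± 0.48 (SD, n = 5) and a limma adjusted p of 0.432. Every array was negative, with arrays 2 and 4 nearest 0. The choline transporter-like family 44 had only 3 genes tested, of which 2 were measured on array 5. Of the 8 families with at least 3 genes tested, it alone had a median above that of all genes on all 5 arrays. Its offsets were 1.06, 0.11, 0.42, 0.07 and 0.09. Its gene Slc44a5 had 0.71, 0.10, 0.80 and 1.86 on arrays 1 to 4, positive wherever measured. Slc44a1 had 1.17, 0.55, 0.07, -0.46 and 0.65 over arrays 1 to 5. Slc44a2 had -0.20, -0.55, -0.18, 0.15 and -0.90, negative on 4 arrays but below the median of all genes on only 2 of the 5.

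Lists drawn up from known roles were described in the same way. Of 27 transporters known from retina, 13 were tested with 17 spots. Of these spots, 5 had a negative and 2 a positive ratio at an unadjusted p under 0.05, and 0 passed after adjustment. Among single-symbol probes 6.18% were negative and 3.35% positive by this rule. Both Slc6a6 spots were among the 5 negative ones. Because the list was made with earlier results known, this comparison is not independent of these data. The offset of the 13 genes was -0.54, -0.18, -0.04, -0.24 and 0.06 over arrays 1 to 5. Of 14 transporters that dividing cells draw on, for amino acids, folate, nucleosides, glucose and phosphate, 7 were tested, with an offset of 0.32, 0.04, 0.51, 0.16 and -0.31. Among their 9 spots, 1 negative and 0 positive ones had an unadjusted p under 0.05 by limma, beside the same shares of single-symbol probes. The negative one was the folate carrier Slc19a1.

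Spots of the same gene often disagreed. The 13 genes with several tested spots gave 17 pairs of spots, and in 10 pairs (58.8%) both means had the same sign, against 58.1% of the 1463 pairs of all genes. Array by array, 38 of 77 paired ratios (49.4%) shared a sign, against 55.9% over all genes. The median absolute difference between the paired ratios was 1.37 log2 for the solute carriers and 0.90 for all genes. The SD of a tested spot over the arrays had a median of 0.77 for the members and 0.72 for single-symbol probes, so the spread within a spot was similar. A mean of one spot, including those named above, can therefore not be taken for the value of its gene unless another spot shows the same.

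**Figure D4:**
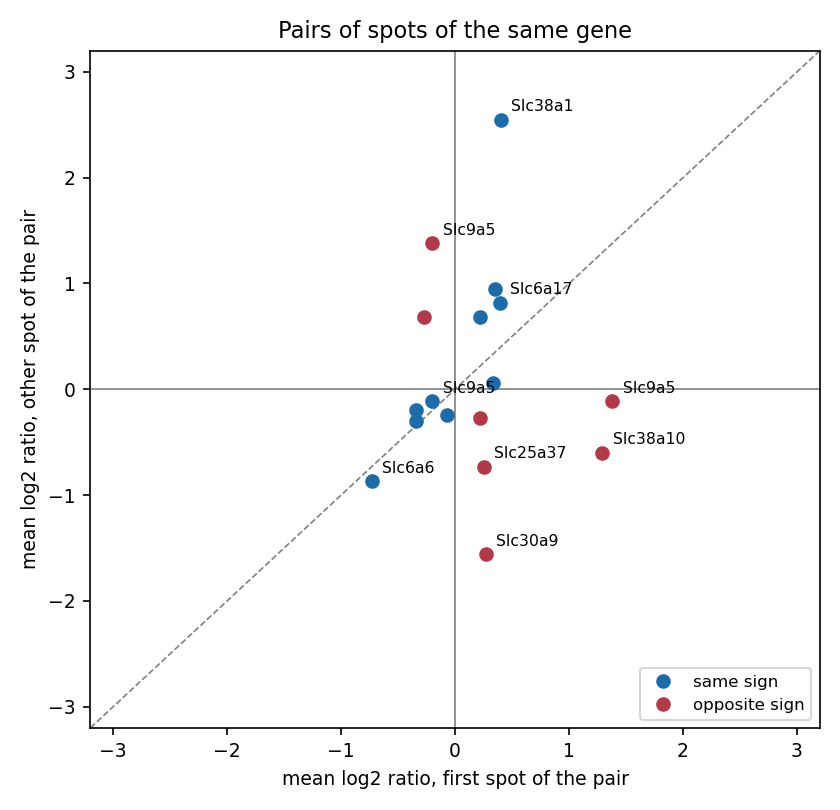
Each point is a pair of spots of the same gene, with the mean centred log2 ratio of one spot on the horizontal and of the other on the vertical axis, blue where the signs match and red where they differ. The dashed line marks equal values. Slc6a6 lies near it, while Slc38a10 and Slc30a9 lie in the quadrant of opposite signs.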

How the data were processed

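Total RNA of Rb-mutant and wild-type mice was compared on 5 dual-colour arrays. GenePix Pro 4.1.1.29 read the spots at 635 and 532 nm per the labels, which record subtraction of the local background and no normalization. The deposited table holds log2 ratios made by the authors, and the log base was read from the values. The filter behind empty cells is not given in the sources used here. Cells at 16.61, taken as a filler, were set to missing, and each array was centred on its median. Probes on at least 4 of 5 arrays, without the ACTB control spots, entered an intercept-only model (lmFit, then eBayes, of limma 3.58.1 under R 4.3.3). Benjamini-Hochberg adjustment ran over every tested probe, with a threshold of 0.05. The fit was tested on simulated data. Gene values are means of a gene's tested spots. Family and class values are medians over genes and were not tested.

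Symbols came from the platform annotation, and all 97 member genes had an entry in the RefSeq table of GRCm38.p6, the source of the promoters. Named were the 6 member probes with the smallest p in each direction, the 2 genes with the smallest p in each family with at least 3 genes tested, and listed retinal and growth transporters. Further genes are named as examples chosen after their values were seen. Members and lists were chosen with earlier results of these data known. Usable spots were 71.8% to 75.9% per array. Other centring, scaling, filters, tests and subsets of arrays were tried.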

Additional observations from a re-analysis of the deposited data

Results flagged for a closer look

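The 34 named spots and the medians of classes, families and members gave 50 sets of values in which one array could be compared with the rest. In 2 of them an array lay apart, where chance gives about 2.5. For Slc32a1 this was array 2 at -4.18 log2, while its other ratios ran between -0.06 and 1.59. For Slc35e4 it was array 4 at -5.78 log2, while its other ratios ran between -1.10 and -0.15. No explanation for either was tested.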

How the results depend on the processing

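Under all 17 alternatives, 0 member spots and 0 probes overall had an adjusted p under 0.05. The count of member spots at an unadjusted p under 0.05 was 14 of 89 as reported, beside 1146 of all 10036 probes. It was 22 of 89 with no centring (2107 of 10036 probes) and 9 of 89 with the unmoderated test (1033 of 10036). With the arrays at focus position 10 alone it was 5 of 112 (1055 of 13140 probes). With those at focus position 0 alone it was 3 of 94 (712 of 10151 probes). With 1 array left out it was 6 to 9, beside the counts of all probes given above. The smaller sets have fewer samples, and for the rest the cause was not tested. The members' offset from all genes ran from -0.06 to 0.04. Of the 34 named spots, 4 changed the sign of their mean with no centring and 5 of 31 with focus position 0 alone, which left 2 arrays. None did so with arrays centred on the probes measured on all 5, scaled or quantile normalized. Class medians of amino acids, metals and mitochondrial carriers kept their sign under all 17, and those of the other 4 classes did not. Both RNAs of a comparison share an array, so the test of the ratio against 0 is already paired by array. All arrays form 1 group, and no further pairing was made. Ratios carry no signal over background, so dim spots could not be set apart.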

Other observations

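Genes linked to transport were also described by lists, again as offsets from the median of all tested genes. The proton pump of vesicles and lysosomes, which energises vesicular transporters, had 10 of 18 listed genes tested, with an offset of -0.75, 0.22, -0.61, 0.02 and -0.20 over arrays 1 to 5. Of its 15 spots, 2 had a negative ratio at an unadjusted p under 0.05 and 0 a positive one, where 5.9% of all probes were negative and 5.52% positive by this rule. One of them, for the neuronal subunit Atp6v1g2, gave centred log2 ratios of -1.83, -0.79, -1.23, -1.64 and -0.45, and a second spot of this gene had -1.43, -0.02, -0.90, -0.35 and -0.31. Genes of the ABC family were listed by name, whether or not they encode transporters. With 10 of 28 genes tested, they had offsets of 0.56, 0.20, 0.55, -0.65 and 0.73. By the same rule 0 of their 16 spots were negative and 2 positive, against the same shares of all probes. The positive ones were Abcf2, at 0.76, 0.79, 0.76, 2.28 and 0.78, and Abcb1a, at 0.68, 0.14, 0.76, 1.38 and 0.60. Binding partners and ion pumps that serve solute carriers, with 10 of 20 genes tested, had offsets of 0.24, -0.21, 0.02, -0.14 and 0.04. Of the 18 spots of this list, 2 were negative and 0 positive by the same rule, against the same shares of all probes. These were a spot of Glul, with a mean of -0.82, and a spot of Slc9a3r1, itself a member, with -0.75. The other Glul spots had means from -0.41 to 0.78. Bsg, the chaperone of lactate transporters, was not among them, at 0.93, -0.15, 0.63, 0.89 and 0.58. No spot of these lists had an adjusted p under 0.05 (limma), and none of these values was compared with the solute carriers by a test.

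Markers of the other retinal cells gave offsets of 0.50, -0.20, 0.25, 0.11 and 0.13 for Muller glia (8 genes), -0.49, 0.00, -0.54, -0.32 and 0.40 for amacrine and ganglion cells (7), -0.29, 0.14, -0.25, -0.22 and 0.09 for bipolar and horizontal cells (5), and 0.59, -1.92, 0.74, -1.26 and 0.53 for vessels (4). The vessel list includes the member Slc22a8. The amacrine and ganglion cell list includes the member Slc32a1 and also Slc17a6, which the rule for members leaves out. These lists are therefore not separate from the solute carriers. The part of the markers in the solute carrier ratios was not tested.

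Solute carrier spots with fewer ratios sat elsewhere than the fully measured ones. The 66 spots on all 5 arrays had medians of -0.38, -0.03, -0.43, 0.01 and -0.15 log2 over arrays 1 to 5, the 23 spots on 4 arrays had 0.12, -0.15, 0.12, -0.25 and 0.60, and the 40 spots on 1 to 3 arrays had 0.04, 0.37, 0.81, -0.72 and 0.78. The median SD over arrays was 0.68, 1.38 and 1.61 in these sets. Single-symbol spots of the whole series differed in the same way, with medians of -0.41, 0.02, -0.43, 0.13 and -0.26 on 5 arrays and 0.02, -0.12, 0.24, -0.46 and 0.19 on 4. Among the sparsely measured members, Slc25a53 was positive on 3 arrays, at 3.82, 1.27 and 2.31 on arrays 1, 3 and 5, and Slc25a11, the oxoglutarate carrier, at 1.28, 1.05 and 2.31 on arrays 1, 2 and 4. Slc25a22, a mitochondrial glutamate carrier, was negative at -1.05, -5.32 and -0.08 on arrays 1 to 3.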
